A study of Mus musculus with 40 samples.

Results

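Oocytes of primary follicles were compared with oocytes of small antral follicles, the span of follicle growth in which the mouse oocyte grows most. Samples were chosen by their titles, which name the follicle stage, and gave 16 of the 40 samples of the series. There were 8 samples per stage, 4 on each of the Affymetrix mouse array types 430A and 430B. These array types carry different probe sets and were analysed apart. The series followed the transcripts of mouse oocytes as their follicles develop. All oocytes came from female SJLB6 mice. A primary sample pooled 90 oocytes of mice aged 6 days, and a small antral sample 30 oocytes of mice aged 17 days. The stage between them, secondary, pooled 60 oocytes at 12 days, and the stage after them, large antral, 20 oocytes at 24 days. No sample carried a mutation or a treatment according to the labels. Because age and pool size changed with the stage, an effect of stage cannot be told apart from an effect of either. The labels call the replicates biological without naming the animals, so p-values measure the spread between these samples.

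A growing oocyte is held in the prophase of its first meiotic division. While it enlarges, it transcribes heavily, lays down the zona pellucida (the glycoprotein coat that sperm bind), stores messenger RNA and protein for the embryo, and exchanges metabolites with the surrounding granulosa cells through gap junctions. Transcription declines as the oocyte reaches full size in the antral follicle, when it also acquires the ability to resume meiosis.

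For 3 of the 4 small antral samples on 430B, replicates 2, 3 and 4, the extraction protocol names the age and pool size of the secondary stage, 12 days and 60 oocytes. They were kept as small antral, as their titles say, and the counts, path shares and named genes of 430B are given with and without them. Correlations of log2 signals with small antral replicate 1 of 430B, whose protocol names its own stage, were 0.877, 0.887 and 0.885 for these samples. Their mean correlations with the 4 secondary arrays were 0.867, 0.878 and 0.876, and with the 4 large antral arrays 0.889, 0.899 and 0.887. The secondary arrays of 430B themselves had mean correlations of 0.886, 0.89, 0.893 and 0.893 with each other. With the large antral arrays theirs were 0.856, 0.866, 0.869 and 0.866. On both measures the 3 samples lay outside the range of the secondary arrays, by small differences. Which of the labels is right was not tested. On 430A the small antral arrays fell into pairs. Replicates 1 and 4 lay together above or below both replicates 2 and 3 in 48.2% of probe sets, against 26.1% and 25.7% for the other ways of pairing these arrays. At the other stages of 430A the most frequent pairing held between 36.6% and 39.5% of probe sets. The labels name no batch that separates these pairs.

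The 2% trimmed means of the deposited intensities lay from 148.2 to 148.5 on the 430A arrays, and those of 430B from 144.4 to 145.3. A scaled signal below is a deposited signal after each array was brought to a trimmed mean of 500. A log2 change is small antral minus primary on log2(scaled signal + 32), with its standard error (SE), so that changes of weak signals are understated. Testing required a scaled signal of 100 or more on 4 of 16 arrays, and a call required an adjusted p (limma, Benjamini-Hochberg) under 0.05. The signals are relative levels within an array. In such pooled material fewer cells of a type and less RNA per cell cannot be told apart.

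Oocyte markers were strong in every array of both stages, the lowest value being 644.3 (Figla, small antral, 430A). On 430B only Ooep and Zar1 were measured, at no less than 43152.8 in any array. Of 13 oocyte marker genes, 13 reached a mean signal of 100 in both stages, and the summed signal of those on 430A lay between 137796 and 142626 in primary and between 128591 and 145021 in small antral samples. Granulosa cell markers summed to between 1365 and 1793 in primary and between 2214 and 2502 in small antral samples, and 5 of their 13 tested members rose (3 without the 3 samples of 430B described above). Sums went from between 949 and 1227 to between 1220 and 1862 for theca and stroma, from between 1686 and 2167 to between 3168 and 3832 for the ovarian surface epithelium (chiefly Aldh1a2, from a mean of 83.5 to 1039, and Cdh1, from 962 to 1539), and from between 930 and 1210 to between 1434 and 1556 for endothelium. For blood and macrophages they lay between 1087 and 1607 and between 1322 and 1692. The granulosa rises were Esr2, Inha, Fst, Slc18a2 and Nr5a2. The strongest tested granulosa marker, Foxl2, went from a mean of 2111 to 1812 (-0.20, not called). Fshr, Inhba and Inhbb also had uncalled changes below 0 (-0.05, -0.21 and -0.51), and Amhr2, Hsd17b1, Kitl and Wnt4 uncalled changes above 0. In the theca and stroma list Nr2f2 and Star changed by -0.62 and -0.18, not called. In the endothelium list Eng changed by -0.13, not called, while Cldn5, Emcn, Kdr, Pecam1 and Tek had uncalled changes above 0. For those of these genes on 430B, only values with all samples are given. Another granulosa gene, Amh, the anti-Mullerian hormone, stayed between 9.8 and 12.1 in primary and between 12.1 and 25.3 in small antral samples. Cyp17a1, which defines theca cells, stayed between 12.1 and 39.1 and between 15.8 and 82.5, and the stroma collagen gene Col3a1 between 25.3 and 49.2 and between 11.5 and 43.1. These genes were too weak to be tested.

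Of the 14911 tested probe sets of 430A, 2567 (17.2%) were higher and 2971 (19.9%) lower in small antral oocytes. In 4619 of these 5538 the 4 samples of each stage did not overlap. This was counted among called probe sets only, where the call itself favours separated samples. Changes of at least 2-fold were called upward in 631 probe sets (4.23%) and downward in 785 (5.26%), and changes of at least 4-fold in 91 and 90. On 430B 1165 of 17887 tested probe sets (6.51%) were higher and 1225 (6.85%) lower, with 506 (2.83%) and 587 (3.28%) at least 2-fold. Log2 changes had a median SE of 0.16 for 430A probe sets and of 0.34 for those of 430B, which resolve changes less finely. Without the 3 samples described above, 578 (3.23%) were higher and 804 (4.49%) lower on 430B, with a median SE of 0.52, and 364 (2.03%) and 552 (3.09%) were at least 2-fold. Of the 2390 probe sets called with them, 2387 kept their sign, 1180 were called in both analyses in the same direction, and 0 were called in opposite directions. With 1 probe set per gene, 2305 of 14923 genes rose (15.4%) and 2350 fell (15.7%), with a median log2 change of 0.00. Without the 3 samples of 430B 2027 rose (13.6%) and 2176 fell (14.6%). Among the 9183 genes measured on 430A, 18.5% rose and 19.9% fell. These 430A shares are the nearer background for most gene groups below, since few of their members were measured on 430B. Among the called genes, 131 had another probe set called the opposite way.

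**Figure D1:**
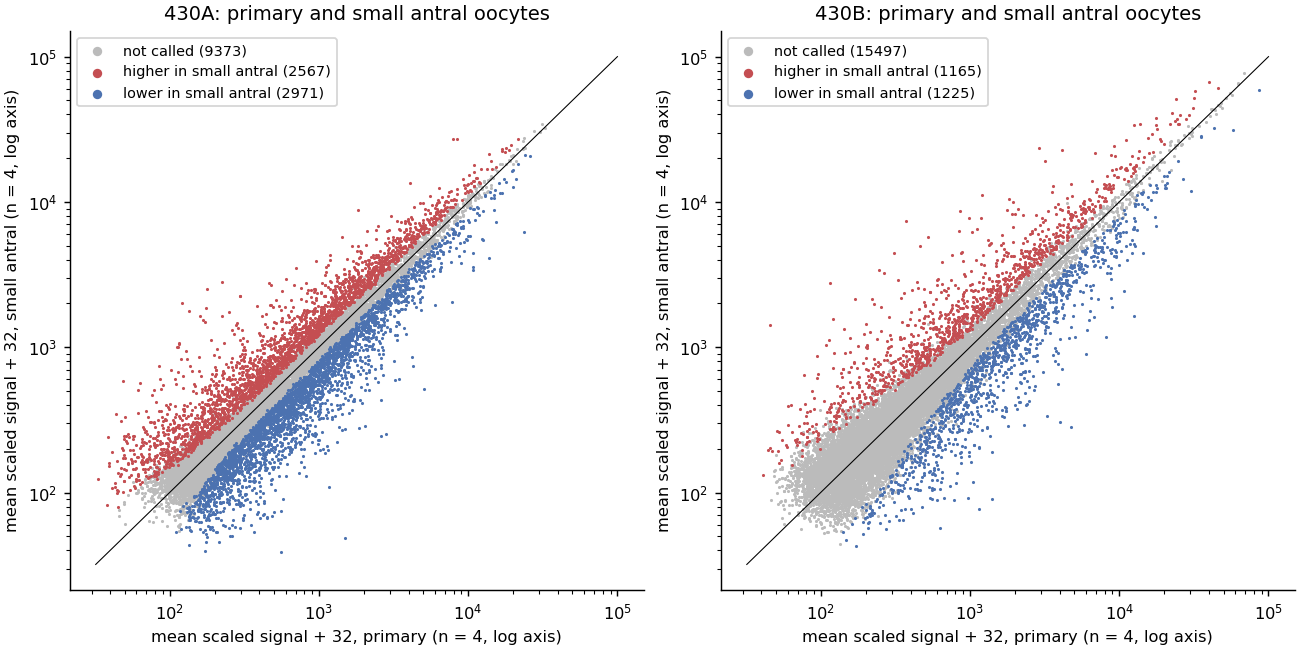
Mean scaled signal plus 32 of each tested probe set in primary (x axis) and small antral oocytes (y axis), 4 arrays per stage, log axes, with 430A on the left and 430B on the right. Red points were called higher and blue points lower in small antral oocytes, grey points were not called, and the line marks equal levels; the called points lie on both sides of the line over the whole range of signal.

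The largest rises and falls were named among called genes whose primary and small antral samples did not overlap. Lack of overlap in these genes follows from that choice. The largest rises on 430A took genes from weak to strong signals. The metabolic and transport genes among them were Rgn, Aqp9, Slc6a15 and Aldh1a2. Rgn encodes regucalcin, a calcium-binding protein (probe set 1448852_at). Its scaled signals were 134, 146, 103 and 200.1 in the primary samples and 2537, 2224, 2295 and 2856 in the small antral samples, a log2 change of 3.84 ± 0.14 (SE, adjusted p = 5e-14). The samples of the stages did not overlap. At the secondary stage the mean was 259, a log2 change of 0.73 from primary. Aqp9, a channel for water and glycerol, read 133, 72.9, 139 and 68.5 in primary and 1799, 1659, 1698 and 1803 in small antral samples (3.75 ± 0.16). Slc6a15, a neutral amino acid transporter, went from 60.4, 53.0, 37.8 and 58.7 to 642, 708, 636 and 838 (3.13 ± 0.15). Every small antral value of both transporters stood above every primary value. Aldh1a2 makes retinoic acid from retinal. It read 81.3, 176, 38.1 and 38.8 in primary and 1156, 822, 1101 and 1077 in small antral samples (3.35 ± 0.29). The gene also stands in the list of ovarian surface epithelium markers, in which Upk3b and Cdh1 rose too and Krt8 fell. In that list Upk1b and Muc16 (430B, all samples) and Lgr5 changed by 1.38, 0.53 and -0.17, not called. Krt18, Krt19, Krt7, Msln and Lhx9 were too weak to be tested.

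The signalling and RNA-binding genes among the largest rises were Dab2, Spry4 and Bicc1. Dab2, an adaptor for endocytosis and signalling, read 224, 143, 186 and 210.5 in primary and 2546, 3104, 2963 and 2441 in small antral samples (3.65 ± 0.14). Spry4, an inhibitor of receptor tyrosine kinase signalling, went from 136, 161, 172 and 104 to 1578, 2053, 1942 and 1754 (3.42 ± 0.12). Both were already raised at the secondary stage, with means of 954 and 700.3. Bicc1, the RNA-binding protein bicaudal C that regulates translation, was barely above background at 12.8, 21.3, 22.9 and 9.8 in primary samples and stood at 490.1, 610.0, 588 and 535 in small antral samples (3.60 ± 0.17). Because changes against such weak signals depend on the pseudocount, the Bicc1 change was 4.54 with a pseudocount of 8 and 2.49 with 100. Of the 32 largest changes named on both array types, 17 moved by over 1.5 times in fold under one of these pseudocounts. Structural and adhesion genes made up most of the rest. Myom2, a protein of the sarcomere's M band, read 128, 123, 122 and 140.4 in primary and 1399, 1545, 1852 and 1682 in small antral samples (3.36 ± 0.14). Scin, the actin-severing protein scinderin, read 97.8, 53.0, 71.8 and 97.5 and 1148, 719, 899 and 1104 (3.16 ± 0.16), and Cntn6, a contactin of the cell surface, 10.1, 26.7, 52.6 and 36.4 and 473, 475, 573 and 615 (3.19 ± 0.19). The samples of the stages did not overlap for these 3 genes. Pdzph1 read 126, 115, 152 and 144 in primary and 1553, 1504, 1301 and 1683 in small antral samples (3.21 ± 0.11), and Tctex1d1, of the dynein light chain Tctex1 family, 47.9, 105, 84.3 and 90.8 and 1041, 1058, 852 and 939 (3.16 ± 0.16).

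The largest falls included genes of nuclear transport, meiosis, energy supply and growth signalling. Maged1, a member of the MAGE family (probe set 1450062_a_at), fell furthest. Its signals of 1099, 1524, 1368 and 1830.4 in primary samples dropped to 24.3, 14.8, 11.1 and 16.2 in small antral samples, a log2 change of -4.92 ± 0.21 (SE, adjusted p = 8.7e-13). The highest small antral value lay far below the lowest primary value, and all 4 small antral values were near background, so that the change was -5.90 with a pseudocount of 8 and -3.72 with 100. Ran, the small GTPase that drives transport into and out of the nucleus and organises the spindle, went from 2621, 2624, 2666 and 2419 to 343, 207, 106 and 204 (-3.49 ± 0.20). Smc1b, the meiosis-specific cohesin subunit, read 1036, 957, 1008 and 1163 in primary and 115, 241, 260.3 and 46.8 in small antral samples (-2.62 ± 0.29). Its small antral values spread widely, from 46.8 in replicate 4 to 260.3 in replicate 3, without reaching the primary range.

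Among the enzymes, Hsd17b10, a mitochondrial dehydrogenase, fell from 2636, 2563, 2502 and 2634 to 419, 363, 318 and 496 (-2.62 ± 0.13), Pfkfb3, which makes the activator of glycolysis fructose bisphosphate, from 503, 631, 541 and 503 to 47.2, 73.5, 52.9 and 56.9 (-2.69 ± 0.18), and Tmx1, a thioredoxin-related protein of the endoplasmic reticulum, from 2073, 1844, 1988 and 2124 to 286, 192, 222 and 325 (-2.84 ± 0.14). None of the 3 had overlapping samples. Eif4ebp1, the inhibitor of cap-dependent translation that mTOR phosphorylates, fell from 287, 422, 399.6 and 376 to 29.0, 30.7, 34.7 and 45.5 (-2.58 ± 0.19), while another of its 3 probe sets was called the opposite way. Ptch1, the hedgehog receptor, read 509.6, 406, 411 and 533 in primary and 66.0, 41.1, 26.9 and 33.3 in small antral samples (-2.77 ± 0.23). At the secondary stage its mean was 353, a log2 change of -0.40 from primary. Of the remaining falls, Scamp1, a carrier membrane protein of secretory vesicles, went from 5556, 4805, 4878 and 4821 to 404, 514, 539.5 and 471 (-3.30 ± 0.12), and Myot, the sarcomere protein myotilin, from 2448, 2947, 2697 and 3064 to 239, 226, 209 and 209 (-3.48 ± 0.12). The zinc finger genes Zfp644 and Sp4, a transcription factor that binds GC boxes, fell from 413, 495, 414 and 497 to 20.2, 50.2, 20.5 and 57.2 (-2.86 ± 0.25) and from 483, 357, 407 and 431 to 35.7, 42.5, 41.1 and 21.6 (-2.75 ± 0.17).

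**Figure D2:**
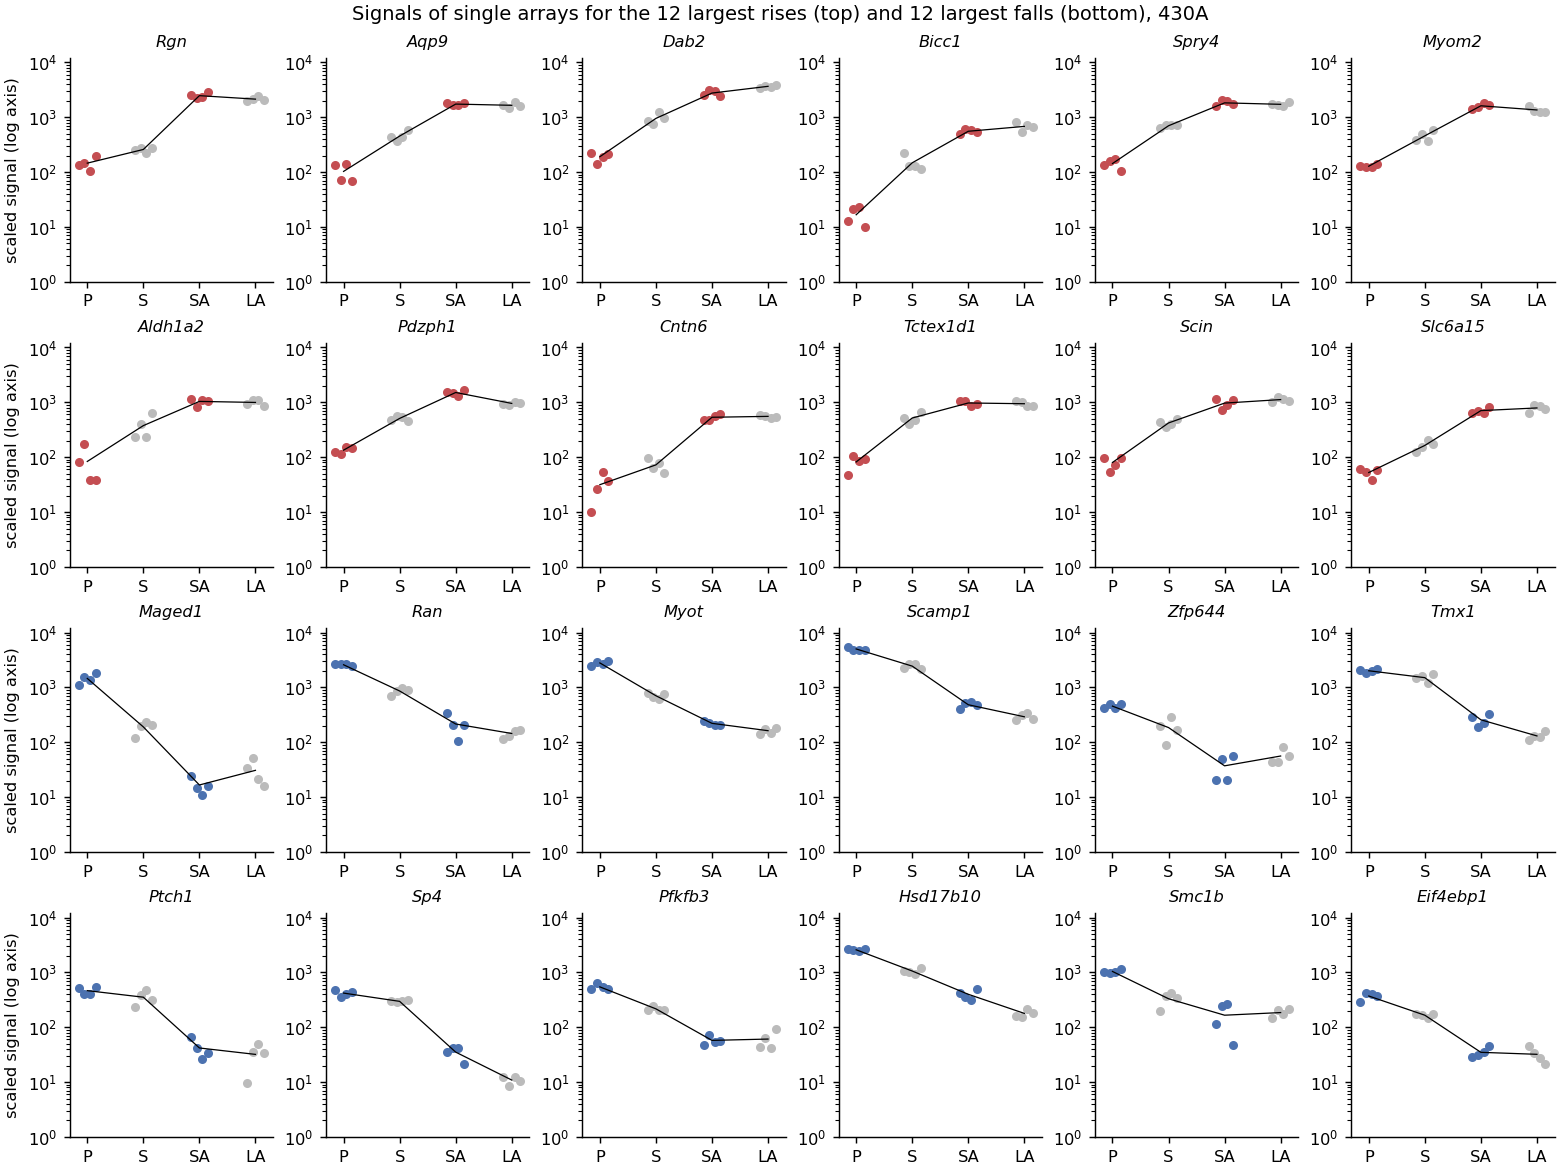
Scaled signal (y axis, log scale) of every array for the 12 largest rises (red, upper rows) and the 12 largest falls (blue, lower rows) on 430A; P, S, SA and LA are the primary, secondary, small antral and large antral stages, each dot is 1 array, grey dots are the stages not compared and lines join the stage means. Primary and small antral dots do not overlap in any panel, as the choice of genes required. For Rgn and Ptch1 most of the change comes after the secondary stage.

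Promoters of these genes are shown because oocyte transcription factors named below, such as Figla and Nobox, are known to bind E-boxes and homeobox sites. RefSeq promoter sequences were found for 7 of the 12 rises and 10 of the 12 falls. For 3 rises and 3 falls with a single listed start, taken in order of size, the 250 bases before the start are given 5′ to 3′ on the gene's strand. Capitals mark E-boxes (CANNTG) and TAATTG, searched on both strands.
Aldh1a2: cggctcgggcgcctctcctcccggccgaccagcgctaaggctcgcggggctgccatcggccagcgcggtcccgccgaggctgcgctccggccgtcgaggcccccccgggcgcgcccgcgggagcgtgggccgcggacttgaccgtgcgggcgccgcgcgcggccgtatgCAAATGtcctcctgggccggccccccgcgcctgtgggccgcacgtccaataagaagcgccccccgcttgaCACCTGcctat
Pdzph1: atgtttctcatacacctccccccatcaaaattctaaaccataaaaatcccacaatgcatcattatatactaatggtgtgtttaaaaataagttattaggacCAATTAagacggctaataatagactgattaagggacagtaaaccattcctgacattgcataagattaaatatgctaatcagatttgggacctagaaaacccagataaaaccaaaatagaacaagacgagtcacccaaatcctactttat
Cntn6: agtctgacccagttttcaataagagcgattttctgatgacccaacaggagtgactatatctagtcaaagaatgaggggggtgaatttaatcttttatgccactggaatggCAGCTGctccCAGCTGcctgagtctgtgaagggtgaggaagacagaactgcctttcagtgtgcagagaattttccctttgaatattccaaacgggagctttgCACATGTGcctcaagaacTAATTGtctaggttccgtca
Maged1: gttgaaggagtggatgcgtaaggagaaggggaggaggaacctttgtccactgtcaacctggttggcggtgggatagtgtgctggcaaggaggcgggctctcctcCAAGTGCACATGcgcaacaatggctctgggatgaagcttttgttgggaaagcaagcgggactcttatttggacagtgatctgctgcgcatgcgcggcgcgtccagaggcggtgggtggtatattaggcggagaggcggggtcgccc
Ran: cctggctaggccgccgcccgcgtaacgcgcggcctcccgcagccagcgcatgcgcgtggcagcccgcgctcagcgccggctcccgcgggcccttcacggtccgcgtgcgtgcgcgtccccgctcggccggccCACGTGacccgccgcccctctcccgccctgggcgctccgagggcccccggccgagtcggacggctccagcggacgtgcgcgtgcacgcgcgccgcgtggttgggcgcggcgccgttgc
Tmx1: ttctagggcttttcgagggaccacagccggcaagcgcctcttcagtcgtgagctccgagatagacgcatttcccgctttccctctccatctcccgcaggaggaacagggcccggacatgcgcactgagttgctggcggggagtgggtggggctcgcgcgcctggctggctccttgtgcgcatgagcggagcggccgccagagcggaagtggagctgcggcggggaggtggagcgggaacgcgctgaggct
In GRCm38.p6 these lie at chr9:71215539-71215788 (Aldh1a2, plus strand), chr17:58991376-58991625 (Pdzph1, minus), chr6:104492794-104493043 (Cntn6, plus), chrX:94542026-94542275 (Maged1, minus), chr5:129019906-129020155 (Ran, plus) and chr12:70452904-70453153 (Tmx1, plus), each upstream of its gene. An E-box stood in 3 of the 7 rises and 6 of the 10 falls with a sequence, against 66% of 27025 promoters of the same length. TAATTG stood in 3 of the 7 rises (Pdzph1, Cntn6 and Scin) and 0 of the 10 falls, against 7.34%. In Cntn6 1 pair of E-boxes overlaps, in the run of capitals that holds 8 letters, and in the other 5 sequences printed 0 pairs overlap. GGGCGG, a GC box, stood in 2 rises and 6 falls (32.9% of all), and TATAAA in 0 of either (13%). Such matches describe the letters and show no binding.

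On 430B genes were named among those without overlap that were also called in the same direction without the 3 samples. The largest rises among these were Fam162b, Tex26, Defb41 and 9130409I23Rik. Fam162b (1453496_at) read 62.3, 76.2, 144 and 49.4 in primary and 2991, 2310.1, 2883 and 2737 in small antral samples, a log2 change of 4.64 ± 0.19, and 4.78 without the 3 samples whose protocol names another stage. Tex26 went from 424, 464, 284 and 196 to 6646, 6981, 7649 and 8179 (4.37 ± 0.18, 4.22 without the 3), and Defb41, a beta-defensin, from 31.8, 198, 54.3 and 72.5 to 1689.9, 1452, 1428 and 1511 (3.85 ± 0.28, 4.00 without the 3). Small antral replicate 1, the sample with no conflict in its labels, was the highest for Fam162b and Defb41 and the lowest for Tex26. It lay above the primary samples in each case, as the choice of these genes required, so this says nothing of the other 3 samples. The uncharacterised transcript 9130409I23Rik read 288, 252, 256 and 322 in primary and 4978, 4151, 3936 and 4524 in small antral samples (3.83 ± 0.18, 4.01 without the 3).

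The largest falls on 430B, named by the same rule, were led by a hypoxia-responsive transcription factor. Epas1, also known as HIF-2 alpha (1435436_at), read 774, 1236, 1243 and 1224 in primary and between 28.9 and 63.6 in small antral samples (-3.90 ± 0.52, -3.56 without the 3). Zbtb49 and Zfp217, both zinc finger transcription factors, fell from 1175, 1227, 451 and 893 to 74.7, 31.7, 63.5 and 68.3 (-3.34 ± 0.34, -3.09 without the 3) and from 13927, 12137, 11662 and 12429 to 1663, 1402, 1755 and 1643 (-2.93 ± 0.22, -2.89 without the 3). Isg20l2, an exonuclease that trims ribosomal RNA, fell from 587, 702, 484 and 770.5 to 7.6, 30.3, 104 and 93.8 (-3.03 ± 0.48, -4.06 without the 3). Samples of the stages did not overlap for any of these 4 genes, as their choice required. The secondary mean of Zbtb49, 1053, lay within the range of its primary samples.

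Transcripts of the zona pellucida and of secreted oocyte factors kept high levels. Zp1, which cross-links zona filaments, fell, from 18280.1, 15299, 16707 and 15307 in primary to 9553, 12092, 12190.5 and 11866 in small antral samples (-0.52 ± 0.09, adjusted p = 6.6e-05). Its small antral replicate 1 was lowest, and the stages did not overlap. Zp2 read 22011, 19968, 21345 and 20035 and 20279, 19111, 19384 and 17290.3 (-0.13 ± 0.06, adjusted p = 0.1). Zp3 read 23609.9, 23464, 23528 and 22346 and 25172, 23581, 24437 and 20377 (0.01 ± 0.08, adjusted p = 0.97), and for both genes the samples overlapped and the change was not called. Gdf9 and Bmp15 encode the growth factors by which the oocyte drives granulosa cell growth. Gdf9 read 27492, 27118, 25844 and 29052 in primary and 29249, 33410.5, 32422 and 28301 in small antral samples (0.17 ± 0.07, adjusted p = 0.069, not called), and was called without small antral replicate 4 (0.21, adjusted p = 0.034). Bmp15 rose from 919, 967, 1295 and 1302 to 2419, 2230.3, 2688 and 2968 (1.19 ± 0.14, adjusted p = 1.6e-06). Most of its rise was present at the secondary stage, with a mean of 2061. Of 11 tested zona and secreted factor genes 4 rose and 1 fell (median log2 change 0.17), the rises being Bmp15 and the oocyte-secreted proteins Oosp1 (0.33 ± 0.07), Oosp2 and Oosp3 (0.73 ± 0.08, 0.68 without the 3 on 430B). Oosp1 lost its call with the primordial arrays in the fit (adjusted p = 0.22).

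The transcription factors Sohlh1 and Figla fell, whereas homeobox genes of the Obox family rose. Sohlh1, a basic helix-loop-helix factor of early follicles measured on 430B, fell from 3743, 4037, 4093 and 3479 to 646, 493, 409 and 552 (-2.81 ± 0.15, -2.51 without the 3). Figla, the factor needed for primordial follicles and zona genes, fell from 2253, 2642, 2482 and 2996 to 980.3, 823, 644 and 813 (-1.64 ± 0.12, adjusted p = 1.1e-09). Neither had overlapping samples, and both had covered the larger part of their fall by the secondary stage. Nobox, a homeobox factor of oocyte growth, read 3871, 3822, 4449.9 and 4138 in primary and 3731, 5599, 5206 and 4208 in small antral samples (0.19 ± 0.11, adjusted p = 0.19). It was not called, and its small antral samples split by pair: with replicates 2 and 3 alone the change was 0.41 and called (adjusted p = 0.003), with replicates 1 and 4 alone -0.04, and without replicate 1 0.29 (adjusted p = 0.03). The LIM homeobox gene Lhx8 read 4452, 3912, 4026 and 4124 and 3523, 3671, 3646 and 3948 (-0.16 ± 0.10, not called). Obox2 rose from 6904, 8317, 8076 and 8206 to 28681, 28621, 28151 and 22817 (1.77 ± 0.08) and Obox5, on 430B, from 13155, 15724, 13485 and 12396 to 33725, 28671, 37544 and 37152 (1.32 ± 0.12, 1.30 without the 3). The Obox genes form a family of near-identical copies, so their probe sets may read more than 1 member. Of 15 tested regulators 3 rose and 4 fell (median -0.14).

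**Figure D3:**
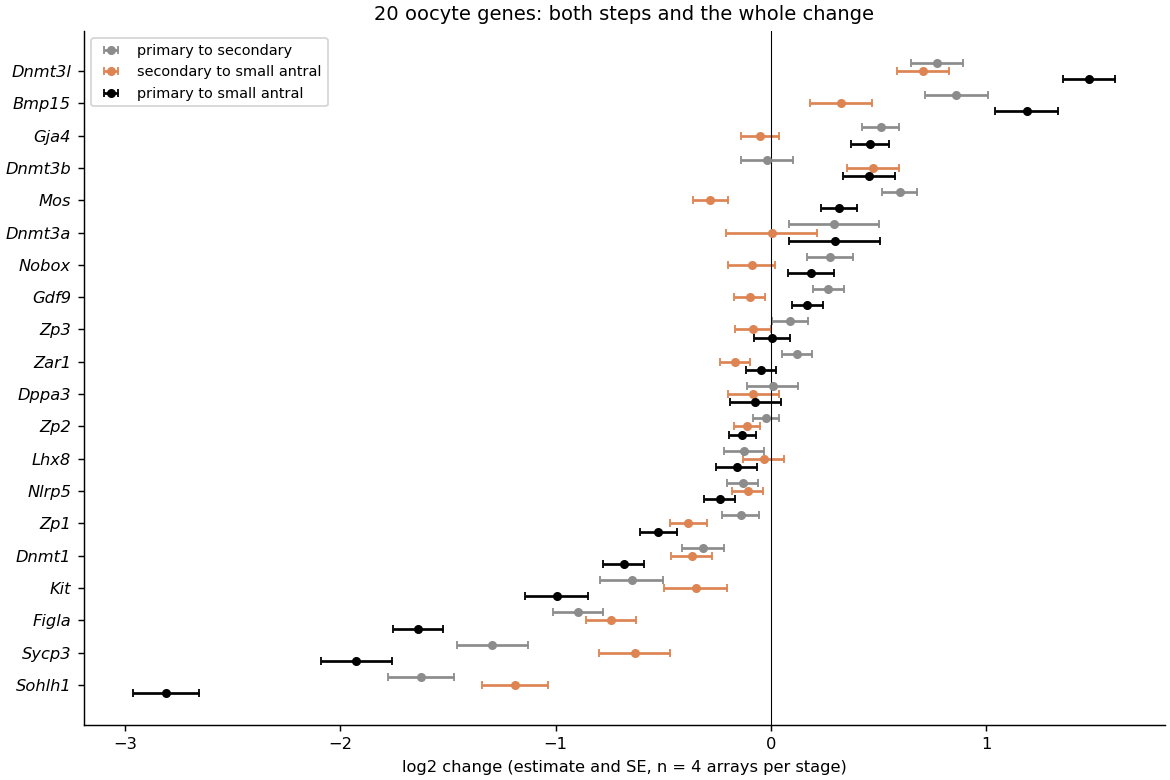
Log2 change (x axis, estimate with SE, 4 arrays per stage) of 20 oocyte genes from primary to secondary (grey), secondary to small antral (orange) and primary to small antral (black). Dnmt3l and Bmp15 have the highest whole changes, Sohlh1, Sycp3 and Figla the lowest, and Zp3, Zar1 and Dppa3 lie near 0; Sohlh1 and Zar1 were measured on 430B.

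Meiotic genes changed in both directions. In the prophase list, 4 of 25 tested genes rose (16%) and 7 fell (28%, median -0.23), against 18.5% and 19.9% of genes on 430A. The falls included Smc1b, described above, and Sycp3, of the synaptonemal complex that holds homologous chromosomes together, which went from 1085, 1378, 1196 and 1105 to 295, 260.2, 273 and 330.3 (-1.93 ± 0.17). Ddx4, the germ cell RNA helicase, fell from between 2109.8 and 2335 to between 808 and 1107 (-1.21 ± 0.15). Against these, Mei4, which takes part in making meiotic DNA breaks, rose on 430B from 261, 464, 375 and 412 to 2659.7, 2735, 2243 and 2190.3 (2.62 ± 0.20, 2.74 without the 3), with a secondary mean of 353. Syce2, another synaptonemal complex gene, rose by 0.37 ± 0.08, although its lowest small antral value of 11123 lay below its highest primary value of 11374.

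Genes of meiotic arrest and resumption rose in 10 of 34 tested cases (29.4%) and fell in 5 (14.7%, median 0.07). Ccnb3, a B-type cyclin of meiosis, stood out, rising from 69.1, 84.7, 75.2 and 77.9 in primary to 511, 667, 545 and 569 in small antral samples (2.47 ± 0.14). Ccnb2, another B-type cyclin, rose from between 1106 and 1262 to between 1771 and 2193 (0.67 ± 0.10). Mos, the kinase that holds eggs in metaphase, read 5522, 6527, 5859.9 and 6189 in primary and 8679.5, 6920.2, 7209 and 7296 in small antral samples (0.32 ± 0.08, adjusted p = 0.0046). Its call was lost when primordial arrays joined the fit (adjusted p = 0.053) and when small antral replicates 2 and 3 stood alone (0.23, adjusted p = 0.061). Gnas, the G protein subunit that keeps cyclic AMP high and the oocyte arrested, fell from between 5449 and 5841 to between 3050.3 and 3691 (-0.79 ± 0.09). The phosphatase subunit Ppp2r2a fell (-0.49 ± 0.11). Among 39 tested spindle and checkpoint genes 12 rose (30.8%) and 6 fell (15.4%, median -0.04). Bub1b, a checkpoint kinase, rose from between 4078 and 4512 to between 8203 and 10351 (1.08 ± 0.08) and Ttk, which starts checkpoint signalling, by 0.93 ± 0.09, while the chromosome motor Kif4 fell (-0.98 ± 0.13) as did Anapc5 of the anaphase-promoting complex (-0.44 ± 0.08).

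Genes of the egg surface and of egg activation were called 6 times each way among 22 tested (median -0.01). Oog3 and Oog4, oocyte-specific genes of a leucine-rich repeat family with close copies, rose on 430B. Oog3 went from 3787, 4120.5, 2602 and 3864 to 12381, 11692, 13472 and 14151 (1.85 ± 0.12, 1.80 without the 3), and Oog4 from between 10499 and 11677 to between 23744 and 30977 (1.27 ± 0.10, 1.36 without the 3). Both had reached their small antral range at the secondary stage, with means of 12439 and 26438. Cd9, the tetraspanin needed for fusion with sperm, fell from 2193, 2510.3, 2231 and 2348 in primary to 1546, 1031, 888 and 1449 in small antral samples (-0.93 ± 0.15). Rab3a, a GTPase of cortical granule release, fell (-1.49 ± 0.23).

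Of the maternal effect genes, whose products the embryo needs, 7 of 21 rose and 4 fell (median 0.10). Btg4, an adaptor for removal of maternal messenger RNA, rose from between 9323 and 11793 to between 17170.1 and 19067 (0.71 ± 0.08) and Ctcf, the insulator protein, from between 729 and 885 to between 1039.9 and 1399.7 (0.60 ± 0.11). Zfp36l2, which destabilises messenger RNA, fell from 963, 1012, 1270.4 and 1099 to 224, 348, 301 and 364 (-1.72 ± 0.14), and Smarca4, the chromatin remodeller BRG1, from 2213, 2076, 2048 and 2119 to 824, 1406, 1298 and 822 (-0.98 ± 0.16). Zar1, measured on 430B, read 46486, 49612, 45248 and 47268 in primary and 47501, 43949, 43153 and 48351 in small antral samples (-0.04 ± 0.07, 0.01 without the 3, not called). Dppa3, which protects the maternal genome from demethylation, read 10409, 11597, 9892 and 12843 and 12894, 11928, 9343 and 8741 (-0.07 ± 0.12, not called). Among 7 tested genes of the subcortical maternal complex, a protein assembly under the egg membrane, 0 rose and 3 fell (median -0.14). They were Khdc3 (-0.91 ± 0.12, -0.71 without the 3) and Padi6 (-0.57 ± 0.07, -0.59 without the 3) on 430B, and Nlrp5 on 430A, which read 20989.5, 22383, 21559.5 and 20607 and 19488, 19061, 17099 and 16961 (-0.24 ± 0.07, adjusted p = 0.011). The Nlrp5 call was lost under 3 alternatives, among them median scaling (-0.20, adjusted p = 0.11).

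DNA methylation genes changed both ways. Dnmt1, the maintenance methyltransferase, fell from 21293, 20361, 19606 and 18812 to 10423, 13706, 14529 and 11534 (-0.68 ± 0.10), with small antral replicates 1 and 4 below replicates 2 and 3. Dnmt3l, the cofactor needed to set maternal imprints in growing oocytes, rose from 335, 286, 264 and 266 to 734, 782, 989.8 and 947 (1.48 ± 0.12), with no overlap of samples. Dnmt3a, the enzyme that sets them, read 740.0, 758, 1442 and 1156 in primary and 1409.8, 773, 1427 and 1401 in small antral samples (0.30 ± 0.21, adjusted p = 0.3, not called). Small antral replicate 2 stood apart for Dnmt3a, the change being 0.51 and called without it (adjusted p = 0.049), and another of its 5 probe sets was called the opposite way. Dnmt3b rose by 0.46 ± 0.12, from between 610.4 and 773 to between 848 and 1111, a call lost with small antral replicates 1 and 4 alone (0.29, adjusted p = 0.12). In the list as a whole 5 of 19 genes rose and 6 fell (median 0.15), and Kdm1a, a histone demethylase, was among the falls (-0.85 ± 0.10).

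Histone acetylation enzymes mostly fell among those called, and histone methylation enzymes changed both ways. Of 29 tested acetylation genes 1 rose and 10 fell (median -0.27, 3.45% and 34.5% against 15.4% and 15.7% of all genes). Hdac1, a histone deacetylase, fell from 1128, 1147, 959.5 and 889 to 479, 405, 453 and 428 (-1.16 ± 0.11) and the acetyltransferase Kat6a (-1.20 ± 0.14). The rise was Sirt5 on 430B, a mitochondrial enzyme that removes succinyl groups (1.39 ± 0.13, 1.55 without the 3). Of 43 methylation genes 11 rose and 6 fell (median 0.08). Ehmt2, which methylates lysine 9 of histone H3 in pair with its partner Ehmt1, fell to near background, from 260.1, 278, 261 and 311 to 12.8, 25.9, 66.0 and 35.7 (-2.26 ± 0.28). Setd1b, a methyltransferase for lysine 4 on 430B, fell from 6473, 7474, 5811 and 6101 to 1992, 2495, 2562 and 1483 (-1.61 ± 0.14, -1.68 without the 3). Eed, a core subunit of polycomb complex PRC2, rose by 0.55 ± 0.08, and Smyd3 by 0.95 ± 0.13 (1.03 without the 3). The falls in methylation enzymes were the larger changes, 5 of the 6 being at least 2-fold against 0 of the 11 rises.

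Genes that store and degrade messenger RNA rose in 8 of 50 tested cases (16%) and fell in 12 (24%, median -0.08). Papolg, a poly(A) polymerase, rose from between 674 and 835 to between 1536 and 1934 (1.16 ± 0.10), and Cnot7, a deadenylase of the CCR4-NOT complex, from between 3644 and 4465 to between 6707 and 7733 (0.91 ± 0.10). Patl2, a repressor of translation in oocytes, fell on 430B from 21821, 21055, 18935 and 20609 to 13224, 11376, 12043 and 12965 (-0.73 ± 0.09, -0.64 without the 3). Its secondary mean of 22588 was no lower than the primary level. In the small RNA list 5 of 29 genes rose and 8 fell (median -0.01). Piwil2, which binds piRNAs, fell from 978, 831, 904 and 907 to 186, 244, 216 and 212 (-1.93 ± 0.13) and Tdrd9, a helicase of the same pathway on 430B, from between 6257 and 7031 to between 2263 and 2982 (-1.32 ± 0.12, -1.53 without the 3). Asz1, which also acts in piRNA production, rose from between 983 and 1123 to between 2019 and 2346 (1.04 ± 0.09), and Ago3 by 0.66 ± 0.09 (0.55 without the 3). Splicing genes fell in 15 and rose in 7 of 58 cases (25.9% and 12.1%, median -0.14), against 19.9% and 18.5% of genes on 430A. Over the alternatives the splicing falls numbered from 11 to 18. The splicing regulator Srsf9 fell from 3632, 3196, 3457 and 2943 to 1093, 948, 933 and 1356 (-1.59 ± 0.11) and Srsf5 (-0.95 ± 0.18), whereas Snrnp40 of the U5 particle rose by 1.43 ± 0.24 and Crnkl1 by 0.64 ± 0.10.

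Genes of RNA polymerase II held more rises than falls, and those of the nucleolus and RNA polymerase I did not. Of 67 tested genes of RNA polymerase II and its general factors 20 rose (29.9%) and 13 fell (19.4%, median 0.09). Among genes on 430A 18.5% rose and 19.9% fell, so the share of falls was near that background. Ccnh, a cyclin of TFIIH, rose from 1189, 1309.5, 1155 and 1374 to 2284, 2353, 2128 and 2538 (0.87 ± 0.10), nearly all of it after the secondary stage, where the mean was 1317. Ccnt2, of the elongation factor P-TEFb, rose by 0.91 ± 0.10, with another of its 5 probe sets called the opposite way. Gtf2e1, the large subunit of TFIIE, fell on 430B from 1094, 1039.7, 811 and 801 to 239.8, 237, 198 and 238 (-1.89 ± 0.23, -1.82 without the 3), and the mediator subunit Med14 (-1.30 ± 0.16). Nucleolar and RNA polymerase I genes gave 13 rises and 16 falls of 63 (20.6% and 25.4%, median -0.12). Fibrillarin, encoded by Fbl, which methylates ribosomal RNA, fell from 1587, 1433, 1493 and 1382 to 529, 508, 323 and 618 (-1.55 ± 0.15), and Rrs1, a ribosome assembly factor, from 225, 308, 293 and 296 to 4.4, 45.5, 15.5 and 63.6 (-2.38 ± 0.27). Utp3 and Imp4, of the complex that processes small-subunit RNA, rose by 1.08 ± 0.17 and 0.68 ± 0.10.

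Of 42 tested cytoplasmic ribosomal proteins 2 rose (4.76%) and 10 fell (23.8%, median -0.19), and of 75 mitochondrial ones 23 rose (30.7%) and 11 fell (14.7%, median 0.15). Among genes on 430A 18.5% rose and 19.9% fell. The difference between these lists was not tested. Over the alternatives the cytoplasmic falls numbered from 7 to 16 and the mitochondrial rises from 13 to 25. Rps19 fell from 1107, 1127, 1029 and 1103 to 562, 716, 579 and 521 (-0.85 ± 0.11) and Rps3 from 7151, 7118, 6099.7 and 5682 to 4869, 3273, 3584 and 3436 (-0.79 ± 0.11). Rpl4 rose by 0.45 ± 0.08 and Rps4x by 0.35 ± 0.11, the latter with overlapping samples and with its call lost without primary replicate 2 (0.29, adjusted p = 0.063), primary replicate 3 (0.29, adjusted p = 0.064) or small antral replicate 1 (0.28, adjusted p = 0.068). Ribosomal protein genes have many processed copies, so these probe sets may read more than 1 locus. In the mitochondrial set Mrpl35 rose from 1373, 1665, 1570.2 and 1532 to 2883, 2911, 3103 and 2412 (0.86 ± 0.09) and Mrpl40 by 0.90 ± 0.12, while Mrpl9 fell from 4552, 4095, 4729 and 4418 to 1819, 1619, 1714 and 2287 (-1.25 ± 0.10) and Mrps34 (-1.15 ± 0.13). Translation initiation genes gave 8 rises and 11 falls of 40 (median 0.01). Eif2s2, a subunit of the factor that brings the initiator transfer RNA, rose by 0.73 ± 0.08, and Eif6, which keeps ribosomal subunits apart, by 0.71 ± 0.07, whereas the helicase Eif4a1 fell (-0.73 ± 0.11).

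Called genes of the respiratory chain mostly fell. Of 58 tested genes of the respiratory chain and ATP synthase 2 rose and 21 fell (median -0.20, 3.45% and 36.2%, against 18.5% and 19.9% of genes on 430A). Uqcrc1, a core subunit of complex III, fell from 1315, 1499, 1444 and 1501 to 544, 382, 488 and 408 (-1.60 ± 0.11), and Ndufa1, of complex I, from 9676, 9626, 9412 and 8711 to 5396, 5272, 5459 and 4996 (-0.82 ± 0.07). The rises were Cycs, cytochrome c (0.59 ± 0.09), and Ndufa8 (0.36 ± 0.09). Fatty acid oxidation genes were called downward in 3 of 22 cases (13.6%, below the 19.9% of genes on 430A) and upward in 0 (median -0.16), with Hadh falling from 395, 288, 381 and 336 to 65.7, 44.1, 80.5 and 80.1 (-1.95 ± 0.18) and Eci1 (-1.01 ± 0.13). Glycolysis and glucose uptake genes split, 6 rising and 8 falling of 25 (median 0.00). Pdhx, of the pyruvate dehydrogenase complex, by which the oocyte uses pyruvate, rose on 430B from 2806, 3001, 2522 and 2681 to 8726, 7321, 7170.2 and 9402 (1.55 ± 0.12, 1.66 without the 3). The monocarboxylate transporter Slc16a1 fell from 358, 404, 405 and 334 to 128, 109, 97.7 and 155 (-1.41 ± 0.17), and Ldha, lactate dehydrogenase, rose between weak signals, from between 11.1 and 19.2 to between 64.0 and 134 (1.46 ± 0.25).

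Serine and one-carbon metabolism, which supplies methyl groups and nucleotides, was called downward in 9 of 19 tested genes and upward in 0 (median -0.32, 47.4% downward). Mtr, methionine synthase on 430B, fell from 1782, 1980.4, 1532 and 1483 to 548, 632, 652 and 720.4 (-1.36 ± 0.15, -1.56 without the 3), and Gcsh, of the glycine cleavage system, from 833, 778, 849 and 982 to 301, 428, 323 and 346 (-1.23 ± 0.14). Antioxidant and glutathione genes fell in 11 of 29 cases and rose in 3 (median -0.24, 37.9% downward). Sod1, superoxide dismutase, fell from 11997, 11082, 10696 and 10826 to 6963, 7972, 7393 and 7390.3 (-0.58 ± 0.07) and the peroxidase Gpx1 (-0.94 ± 0.13), while Glrx, a glutaredoxin, rose from 3278, 3512, 3393 and 3542 to 7102, 6330.1, 6164 and 6262 (0.91 ± 0.07) and Nfe2l2, the regulator of oxidative stress genes, by 0.91 ± 0.15. Cholesterol biosynthesis genes changed both ways, 6 up and 5 down of 21 (median -0.22). Idi1 rose from between 354 and 419 to between 884 and 1218 (1.31 ± 0.14) and Hmgcs1 by 0.47 ± 0.08, whereas Insig1, which restrains the pathway, fell on 430B from 8642, 8999, 8782 and 6889 to 2852, 3469, 3949.7 and 4047 (-1.22 ± 0.13, -1.53 without the 3) and Tm7sf2 (-1.12 ± 0.12).

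Called genes of protein folding and secretion mostly fell, and proteasome genes rose more often than they fell. Of 44 tested heat shock and chaperone genes 7 rose and 20 fell (median -0.33, 45.5% downward). Dnajb1, a cofactor of HSP70, fell from 8787, 8700.3, 8956 and 8728 to 5167, 4931, 5313 and 5371 (-0.76 ± 0.07), and the mitochondrial chaperonin Hspd1 from 4011, 3744, 3601 and 3973 to 2150.2, 1836, 2189.5 and 2214 (-0.86 ± 0.08). Cct5 rose by 0.36 ± 0.07 and Dnaja2 by 0.48 ± 0.09, the latter with 2 of its 4 probe sets called the opposite way. In the secretory pathway 4 of 60 genes rose and 24 fell (median -0.21, 40% downward). Spcs3, of the signal peptidase, fell from 1774, 1655, 1601 and 1616 to 499.9, 569.5, 613 and 735 (-1.42 ± 0.14) and the translocon gene Ssr4 (-1.01 ± 0.11), while the vesicle genes Stx5a and Tmed10 rose by 0.37 ± 0.09 and 0.39 ± 0.11. Proteasome genes gave 14 rises and 4 falls of 38 (median 0.17, 36.8% upward). Psmf1, an inhibitor of the proteasome, rose from 1291, 939, 1195 and 1168 to 2989, 2861, 2537 and 2964 (1.29 ± 0.10) and the activator Psme4 by 0.67 ± 0.08, while the core subunit Psmb2 fell (-0.82 ± 0.10) and the assembly factor Psmg2 (-1.33 ± 0.23). Lysosome and autophagy genes rose in 9 and fell in 18 of 53 cases (median -0.09, 34% downward). The protease Ctsd fell from 2344, 2295, 2426 and 1933 to 902, 1068, 1062 and 948 (-1.15 ± 0.11) and the proton pump gene Atp6ap1 (-1.26 ± 0.15), while the protease Ctsh rose from 1042, 1223, 1088 and 990.3 to 3736, 2453, 2897 and 3937 (1.53 ± 0.13).

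**Figure D4:**
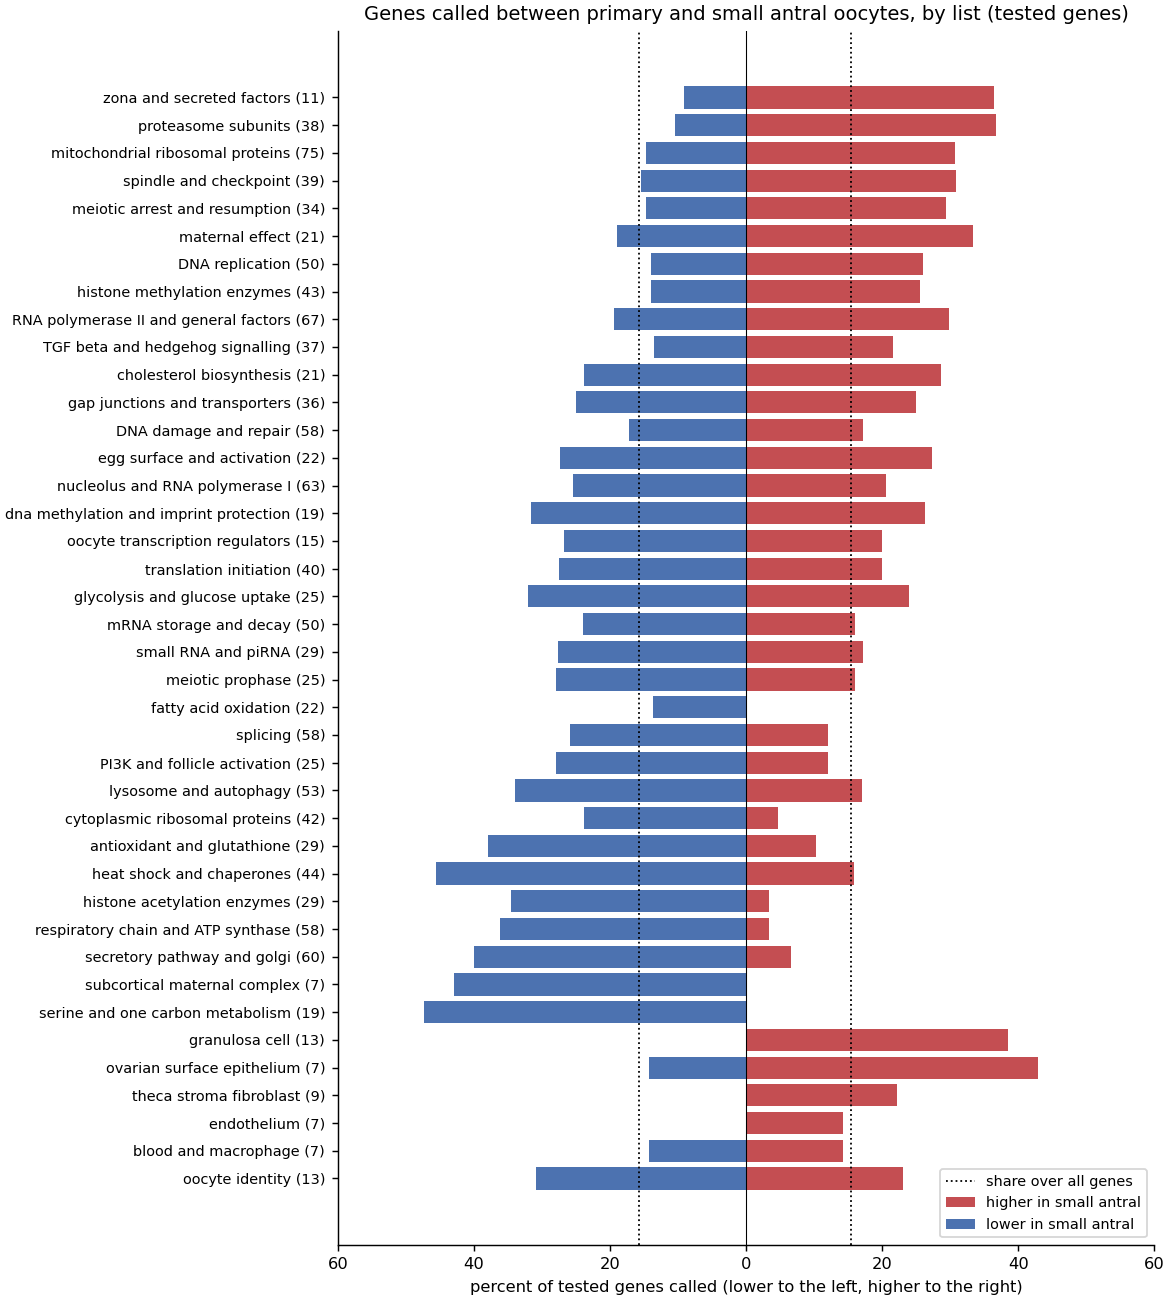
Percent of tested genes called lower (blue, left) and higher (red, right) in small antral than in primary oocytes for each of 40 gene lists, with the number of tested genes in brackets and the 6 marker lists at the bottom; dotted lines mark the shares over all 14923 genes (15.4% higher, 15.7% lower). Serine and one-carbon metabolism, heat shock, subcortical maternal complex and secretory genes reach furthest left, and among the biology lists proteasome and zona genes furthest right.

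DNA replication genes rose in 13 of 50 cases (26%) and fell in 7 (14%, median 0.03). Among genes on 430A 18.5% rose and 19.9% fell. Over the alternatives the replication rises numbered from 9 to 15. The oocyte does not replicate its genome during growth. Mcm10, which loads the replication machinery, rose from between 1931 and 2059.9 to between 3162 and 3806 (0.78 ± 0.08) and Orc1, of the origin recognition complex, from between 607 and 681 to between 888 and 1224 (0.65 ± 0.10), while DNA ligase Lig1 fell from between 1106 and 1209 to between 454 and 726 (-1.07 ± 0.14) and the clamp loader Rfc5 (-0.67 ± 0.12). Repair genes were called 10 times in each direction among 58 (17.2% each way, median -0.08). Parp1, the sensor of strand breaks, fell from 1376, 1346, 1589 and 1290.3 to 542, 596, 378 and 622 (-1.36 ± 0.15). Trp63, the p53 family member that eliminates oocytes with damaged DNA, fell from 1514, 1566, 1654 and 1424 to 673, 617, 562 and 703 (-1.23 ± 0.12). Samples of the stages did not overlap for either. The mismatch repair genes Msh3 and Pms1 rose by 0.77 ± 0.11 and 0.95 ± 0.12, the latter on 430B (0.95 without the 3).

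Single signalling genes of follicle growth, both receptors and ligands, were called. In the PI3K and follicle activation list 12% rose and 28% fell, and among TGF-beta and hedgehog genes 21.6% and 13.5%. Among genes on 430A 18.5% rose and 19.9% fell, so the share of TGF-beta and hedgehog rises was near that background. Kit, the receptor by which the oocyte answers kit ligand from granulosa cells, fell from 4429, 5176, 4484 and 4517 to 1897, 2875, 2651 and 1976 (-0.99 ± 0.15), and its highest small antral value lay well below its lowest primary value. In the PI3K and follicle activation list 3 of 25 genes rose and 7 fell (median -0.15). Rptor, of mTOR complex 1, fell on 430B from 2800.4, 3508, 3124 and 3777 to 1823, 1574, 1502 and 1777 (-0.97 ± 0.11, -0.84 without the 3), and Tsc1, which restrains mTOR, rose by 0.49 ± 0.10. Foxo1 read 2381, 2341, 2477 and 2152 and 2661, 2884, 2799 and 2492 (0.21 ± 0.08, adjusted p = 0.039). That call was lost in 6 of the 8 leave-one-outs of these stages, without small antral replicate 2 (0.18, adjusted p = 0.11), primary replicate 4 (0.17, adjusted p = 0.13), primary replicates 1 and 2 (0.22 and 0.21, adjusted p = 0.054 and 0.069) and small antral replicates 1 and 3 (0.22 and 0.19, adjusted p = 0.053 and 0.086). Among TGF-beta and hedgehog genes 8 of 37 rose and 5 fell (median -0.01), and without the 3 samples of 430B 5 rose and 5 fell. In the other biology lists leaving out these 3 samples moved either count by at most 2. The ligands Tgfb2 and Tgfb3 rose, from 2444, 2437, 2627 and 2661 to 4971, 4834, 3824 and 4755 (0.84 ± 0.09) and from 329.9, 311, 269 and 297 to 741, 559.8, 605 and 772 (1.06 ± 0.14). The receptors Tgfbr1 (-1.17 ± 0.12) and Ptch1, described above, fell.

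Gap junction and transporter genes were called 9 times each way among 36 (median -0.01). Gja4, the connexin that joins the oocyte to granulosa cells, rose from 5323, 6607, 6340.5 and 6168 to 8964, 7894, 7468 and 9372 (0.46 ± 0.09), a level it had reached at the secondary stage. Gjc1, another connexin, fell from 494, 381, 356 and 307 to 182, 107, 163 and 207 (-1.09 ± 0.18). The cystine transporter Slc7a11 rose from 329, 327, 363 and 396 to 992, 660.2, 713 and 1006 (1.16 ± 0.14), and the sodium pump gene Atp1b1 fell (-1.54 ± 0.14).

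Markers of other ovarian cells included rises from weak and from moderate signals. Esr2, a granulosa oestrogen receptor, read 19.6, 77.3, 28.7 and 121 in primary and 346, 299, 234 and 262 in small antral samples (1.89 ± 0.27), and Inha, the inhibin subunit, 197, 223, 292 and 197 and 477, 479, 438 and 378 (0.88 ± 0.14). The other granulosa rises were Fst, follistatin, from a mean of 331.5 to 609 (log2 change 0.82), and Slc18a2, from 166 to 417 (1.35), both on 430B, and Nr5a2, a nuclear receptor, from 683 to 926 (0.42). Without the 3 samples Fst read 0.92 (adjusted p = 0.11) and Slc18a2 0.81 (adjusted p = 0.59), and neither was called. The steroid enzyme genes Cyp11a1, on 430B, and Hsd3b1 rose from 156, 219.6, 152 and 309 to 808, 687, 638 and 706 (1.66 ± 0.22, 1.85 without the 3) and from 48.9, 54.7, 24.3 and 104 to 306, 148, 182 and 342 (1.63 ± 0.27). Over the lists, 5 of 13 granulosa, 2 of 9 theca and stroma, 3 of 7 surface epithelium, 1 of 7 endothelial (Flt1, 0.87 ± 0.16) and 1 of 7 blood and macrophage genes (C1qb, 1.04 ± 0.17) rose. In the surface epithelium list Upk3b, a uroplakin, rose from a mean of 66.9 to 201.3 (1.35), Cdh1, E-cadherin, rose by 0.65 ± 0.12 and the keratin Krt8 fell (-0.90 ± 0.17), and in the blood list Hba-a1, a haemoglobin chain, fell with overlapping samples (-0.96 ± 0.33). The Hba-a1 call was lost without primary replicate 1, 3 or 4 (adjusted p = 0.069, 0.051 and 0.059) and without small antral replicate 2 or 4 (adjusted p = 0.089 and 0.12). The summed signals of these lists, given above, were higher in small antral than in primary samples for granulosa, surface epithelium and endothelium without overlap. The part of other cells in the changes of single genes was not tested.

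The secondary samples placed the changes in time. For the 631 rises past 2-fold on 430A the median share of the log2 change already present at the secondary stage was 54.6% (quartiles 36% and 72.4%), and for the 785 falls it was 42.6% (22.2% and 59.2%). A test of whether the steps before and after the secondary stage were equal called 1099 of 14911 probe sets of 430A (7.37%), with the second step more negative in 787 and more positive in 312. It called 347 probe sets of 430B (1.94%), and 156 without the 3 samples (0.872%). These counts depended on single secondary arrays. On 430A 731 were called without secondary replicate 1 and 714 without replicate 4, and on 430B 175 and 171; with small antral replicates 2 and 3 alone 1703 were called on 430A. Among the 631 rises the first step was called larger in 95 and the second in 48, and among the 785 falls the first in 30 and the second in 112. On 430B the median shares were 56.9% for rises and 38.6% for falls, and without the 3 samples 54.7% and 28.7%.

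**Figure D5:**
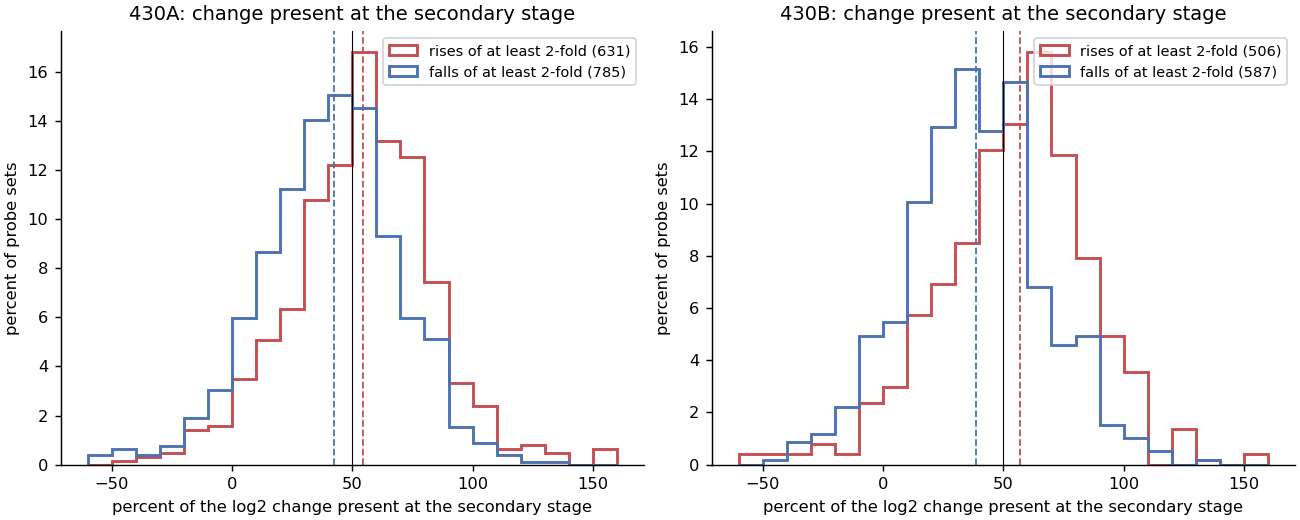
Distribution over probe sets (y axis, percent) of the share of the log2 change from primary to small antral that was present at the secondary stage (x axis, percent, values beyond the axis placed in the end bins), for rises (red) and falls (blue) called and at least 2-fold, 430A left and 430B right. Dashed lines mark the medians (54.6% and 42.6% on 430A), which fall on opposite sides of the thin line at 50%.

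Some genes stood highest or lowest at the secondary stage itself. On 430A 213 probe sets (1.43%) had unequal steps with all secondary samples above both other stages, and in 136 of these the change from primary to small antral was not called. Hp, haptoglobin, read 17.5, 18.2, 10.8 and 27.3 in primary, a mean of 458 in secondary and 360.1, 265, 290.3 and 289.9 in small antral samples, and it kept most of its rise (2.73 ± 0.15). Ccne2, cyclin E2, read 749, 723, 561 and 745 in primary, a mean of 1176 in secondary and 388, 250.4, 235 and 436 in small antral samples. It was thus lower in small antral than in primary oocytes (-1.05 ± 0.18) after a secondary peak. Rhbg, an ammonium transporter, peaked at a mean of 492, against between 108 and 185 in primary and between 116 and 309 in small antral samples (0.17 ± 0.22, not called). Slc30a2, a zinc transporter, peaked at 297, against between 132 and 145 in primary and between 33.7 and 128 in small antral samples. The peaks of Lrrc4 and Gm9222 were 187 and 3086, with small antral values between 76.5 and 163 for Lrrc4 and between 1384 and 1828 for Gm9222. The Slc30a2 change from primary to small antral (-0.64 ± 0.24) lost its call without any 1 of the primary replicates (adjusted p between 0.057 and 0.071) and without small antral replicate 1 (-0.39, adjusted p = 0.16) or 3 (-0.65, adjusted p = 0.059). For Rhbg the change was called with small antral replicates 1 and 4 alone (0.66, adjusted p = 0.014) and had the opposite sign with replicates 2 and 3 alone (-0.32, adjusted p = 0.23).

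The opposite pattern, all secondary samples below both other stages, was called in 53 probe sets of 430A (0.355%), 39 of them with no call from primary to small antral. Haus7, of the augmin complex that builds spindle microtubules, read 804, 802, 922 and 829.7 in primary, a mean of 353 in secondary and 766, 649, 783 and 735 in small antral samples. Prom1, the membrane protein prominin, read 1041, 1252, 1006 and 1114, 514 and 869, 777, 743 and 844, and fell over the whole span (-0.43 ± 0.12), a call lost with small antral replicates 1 and 4 alone (-0.35, adjusted p = 0.075). Atg10, an autophagy gene, and Man1a, a mannosidase of the Golgi, dipped to 30.9 and 129.7 and then rose above their primary range, to 213, 238, 165 and 264 and to 662, 629, 564 and 675 (1.41 ± 0.21 and 1.55 ± 0.12). Rasgrp1, an activator of Ras, dipped to 22.2, against between 41.5 and 120.4 in primary and between 81.2 and 104 in small antral samples. Slit2, an axon guidance ligand, dipped to 32.6, against between 61.0 and 124 and between 59.6 and 154. Neither of these 2 changed by call from primary to small antral.

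Most large changes, like most probe sets of 430A, were not followed by a called change in the large antral follicle. Where large falls were followed by one, more fell further than rose back. In that next comparison, which shares the small antral arrays, 798 probe sets of 430A rose (5.35%) and 1031 fell (6.91%). Of the 631 rises past 2-fold, 40 rose further, 44 fell back and 547 were not called. Of the 785 falls, 145 fell further, 59 rose back and 581 were not called. Among the genes named, the large antral means were 30.7 for Maged1, 10.9 for Sp4 and 2141 for Rgn, and Gdf9 and Zp3, not called before, stood at means of 21303 and 15864 against 30846 and 23392 in small antral samples.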

How the data were processed

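Transcript levels were measured on Affymetrix 430A and 430B arrays in 40 samples, 16 of them primary or small antral. The deposited tables hold one intensity per probe set, computed by the authors with MAS5 per the submitters' processing notes; raw scans were not used here. Signals of an array were multiplied to give a 2% trimmed mean of 500, after 64 control probe sets per table and 100 of 430A recorded with other decimals were left out. Probe sets reaching 100 on 4 of the 16 arrays of the 4 growing stages were tested on log2(signal + 32) with limma 3.58.1 in R 4.3.3 (intensity trend, 12 residual degrees of freedom), with Benjamini-Hochberg adjustment over each array type. Array number limits the precision. One tested probe set with a single symbol stood for a gene (430A first, then no _x_at suffix, then highest mean), named from GEO's platform annotation: 20284 and 14565 probe sets had 1 symbol, 687 and 241 several, 1555 and 7605 none. Named were the 12 largest rises and falls on 430A and 4 on 430B among called genes without overlap. Those of 430B also had to be called in the same direction without the 3 small antral samples whose protocol names the secondary stage. Also named were up to 2 called genes per list and direction with the smallest adjusted p, 6 genes highest and 6 lowest at the secondary stage, and 20 oocyte genes. Members, lists and these rules were chosen with earlier results of these data known. Certain genes are not reported here. In simulated data few probe sets changed, 50 for each size of change, and all others stayed flat. There 38 of 50 log2 changes of 1 were recovered over 14911 probe sets of 430A and 19 of 50 over 17887 of 430B. For changes of -1 these numbers were 34 and 17, for 0.5 they were 17 and 3, and for 2 they were 46 and 40. With so few changes the adjustment is stricter than in the data, so these shares do not give the recovery of the comparison itself. Replicate numbers did not pair the samples: same-numbered deviations had correlations from -0.086 to 0.104 (430A) and from -0.029 to 0.001 (430B). Alternatives covered scaling, pseudocount, filter, arrays in the fit, the intensity trend, a block and single replicates.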

Additional observations from a re-analysis of the deposited data

Results flagged for a closer look

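Among the genes named, 18 of 374 groups of 4 samples held 1 sample far from the other 3, by the ratio of its gap to the group's whole range. Chance flags about 1 in 20 groups, which is close to the 4.8% found. In primary samples the scaled signal stood apart as highest for Atp1b1 in replicate 1 (2182, next 1783), Kit in replicate 2 (5176, next 4517), Lrrc4 in replicate 1 (51.6, next 12.5) and Scamp1 in replicate 1 (5556, next 4878). In primary samples the scaled signal stood apart as lowest for Ccne2 in replicate 3 (561, next 723), Epas1 in replicate 1 (774, next 1224), Insig1 in replicate 4 (6889, next 8642) and Kat6a in replicate 3 (899.8, next 1023). In primary samples the scaled signal stood apart as lowest for Mrpl40 in replicate 3 (344, next 445), Obox2 in replicate 1 (6904, next 8076), Rfc5 in replicate 2 (1081, next 1213) and Zp3 in replicate 4 (22346, next 23464). In small antral samples the scaled signal stood apart as lowest for Dnmt3a in replicate 2 (773, next 1401), Gtf2e1 in replicate 3 (198, next 237), Hspd1 in replicate 2 (1836, next 2150.2) and Med14 in replicate 2 (151, next 190). In small antral samples the scaled signal stood apart as lowest for Obox2 in replicate 4 (22817, next 28151) and Zp1 in replicate 1 (9553, next 11866). For Dnmt3a the change is called without that sample, as given above. For the other called genes among these the call held under each single omission of a replicate.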

How the results depend on the processing

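Counts of called probe sets moved by less than 1.5 times under the alternatives run, apart from those given here. On 430B the 2390 called became 1382 (578 higher, 804 lower) without the 3 small antral samples whose protocol names the secondary stage, and the 347 with unequal steps became 156; without a mean-variance trend the latter were 132. The same omission on 430A, added after seeing the data and run for counts only, took the called from 5538 to 3849 (1698 higher, 2151 lower) and unequal steps from 1099 to 504. With single replicates left out, unequal steps ranged from 714 to 1225 on 430A and from 171 to 363 on 430B, the low counts coming without secondary replicate 1 (731 and 175) or 4 (714 and 171), while called probe sets ranged from 5016 to 5334 and from 2072 to 2198. With the replicate block 5522 and 2364 were called, and 1045 and 319 had unequal steps; the numbers do not pair the samples. Settings chosen after seeing the data left only small antral replicates 2 and 3 of 430A (4784 called, 1703 unequal) or only 1 and 4 (5107 and 789). Among called probe sets of 430A 46.4% were higher, 50.5% with arrays scaled to the same median and 49.5% after quantile normalization. Of 175 called named genes 166 kept direction and call under every alternative run on them, 9 lost the call at least once (Foxo1, Hba-a1, Mos, Nlrp5, Oosp1, Rps4x, Slc30a2, Dnmt3b and Prom1) and 0 reversed. Signs turned only in genes that were not called. A pseudocount of 8 or 100 moved the fold of 17 of the 32 largest changes by over 1.5 times, Maged1 most (-5.90 and -3.72). Zp3 read -0.086 after quantile normalization, -0.037 with replicates 1 and 4, and from -0.031 to 0.070 with single replicates left out. Zar1 read 0.011 without the 3 samples, Nobox -0.036 with replicates 1 and 4, and Rhbg -0.319 with replicates 2 and 3. With single replicates left out Rhbg ranged from -0.062 to 0.337, Slit2 from -0.108 to 0.232, Rasgrp1 from -0.158 to 0.192 and Dppa3 from -0.166 to 0.020. Causes were not tested. Weak signals limit small changes most, and on 430B the median SE of 0.34 leaves changes near it unresolved.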
